A study of Drosophila melanogaster with 4 samples.

Results

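The scaffold 3RHet is the part of the FlyBase release 5 assembly of Drosophila melanogaster that holds mapped heterochromatic sequence of the right arm of chromosome 3. It is 2517507 bp long. All Smc3-enriched regions (clusters) that the authors called on it were taken, whatever their score or width: 331 of 7858 in replicate 1, 273 of 6505 in replicate 2 and 232 of 15783 in the authors' replicate-set list. The series is a ChIP-seq experiment on nuclei of larvae of instar 3 of the wild-type strain Oregon-R, with an affinity-purified rabbit polyclonal antibody against Smc3. It has 2 Smc3 ChIP samples and 2 Input samples by title and source name. The free-text description of ChIP replicate 2 names input DNA alone, and the title was followed for all its values below. Each ChIP sample has its own list of clusters, while no separate values of the Input samples were used. All samples share 1 genotype and 1 stage, so there is no contrast between conditions. Values average over the cell types of the larva. The labels do not say that the replicates came from separate collections, so their spread may be technical, and the depth of the samples is unknown here.

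Smc3 is one of the SMC subunits of cohesin. This complex closes as a ring around sister chromatids, keeps them paired from DNA replication to anaphase and also shapes chromosome loops. The cohesin loader Nipped-B places the ring on chromatin. Pericentric heterochromatin, the repeat-rich sequence beside the centromere, is a known site of cohesin in flies and yeasts, and in fission yeast the HP1 protein Swi6 takes part in recruiting cohesin there. Chromatin on 3RHet belongs to this class of sequence, while the arm 3R that continues it is mostly euchromatic.

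Smc3 clusters took up a large part of 3RHet in both replicates. In replicate 1, 44.8% of its bases lay inside clusters, and in replicate 2 the share was 61.7%, or 53.3% ± 12.0 (SD, n = 2). On the arm 3R the shares were 9.37% and 6.64%. Cover on the scaffold was thus 4.78 times that of the arm in replicate 1 and 9.29 times in replicate 2. The arms 2L, 2R and 3L were covered more than 3R. They had 11.3%, 15.4% and 12.7% in replicate 1 and 11.2%, 11.9% and 10.8% in replicate 2. The first 2 Mb of 3R, which lie nearest to the scaffold in the chromosome, were covered to 8.83% in replicate 1 and 10.7% in replicate 2. The rest of the arm had 9.41% and 6.33%, so the replicates went opposite ways there. Cover as dense as that of 3RHet was thus not seen over these 2 Mb. No test was made of differences between sequences, since windows and clusters of 1 list are not replicates. With clusters under the median score of their own list left out, the mean ratio of 7.04 ± 3.19 (SD, n = 2) was 26.7. The median score on the arm was 0.64 in replicate 1 and 0.66 in replicate 2, below the 0.78 of each whole list, and few clusters of 3RHet scored that low.

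Along the scaffold, cover was read in 25 whole windows of 100 kb, and the same regions were dense and sparse in both replicates. In replicate 1 the windows ran from 14.3% to 86.9% with a median of 47.3%, and in replicate 2 from 27.7% to 89.6% with a median of 64.6%. Cover was over 50% in 8 windows of replicate 1 and in 20 of replicate 2, and in 8 windows it was over 50% in both. Replicate 2 was higher in 23 of the 25 windows, by a median of 18.8 percentage points. Across windows the covers of the replicates had a Spearman correlation of 0.834 and a Pearson correlation of 0.849, given as a description over 25 neighbouring windows of 1 scaffold.

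**Figure D1:**
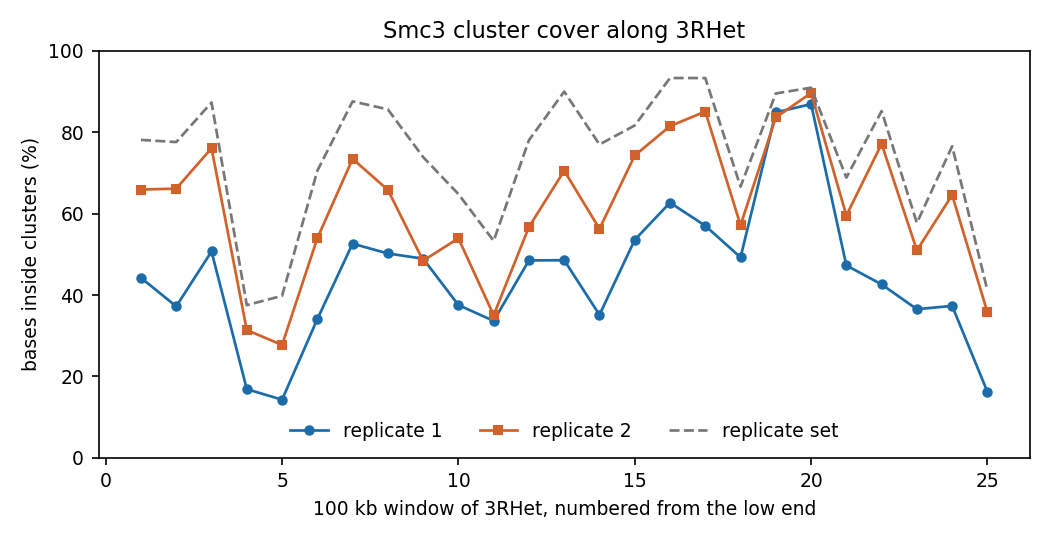
Percent of bases inside Smc3 clusters (vertical axis) in each whole 100 kb window of 3RHet (horizontal axis, numbered from the low end of the scaffold) in replicate 1, replicate 2 and the replicate-set list. Windows 19 and 20 are the densest in the mean of the replicates, at 84.2% and 88.3%, windows 4, 5 and 25 are the sparsest, and the replicate 2 line lies above that of replicate 1 in 23 of the 25 windows.

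The densest windows were neighbours. From 1900001 to 2000000 cover was 86.9% in replicate 1 and 89.6% in replicate 2, a mean of 88.3% ± 1.93 (SD, n = 2). From 1800001 to 1900000 it was 84.9% and 83.6%, a mean of 84.2% ± 0.876 (SD, n = 2). In this 200 kb stretch the replicates were nearly equal, unlike most of the scaffold. The next densest window, from 1500001 to 1600000, had 62.7% in replicate 1 and 81.5% in replicate 2.

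The sparsest windows lay in 2 places, one within the low part of the scaffold and one near its high end. From 400001 to 500000 cover was 14.3% in replicate 1 and 27.7% in replicate 2, and from 300001 to 400000 it was 16.9% and 31.4%. From 2400001 to 2500000 it was 16.2% and 35.7%. The next sparsest window lay inside the scaffold, from 1000001 to 1100000, with 33.6% and 35.1%. Even these sparsest windows of 3RHet were covered more than the average of the arm 3R in the same replicate. The replicates were furthest apart from 2100001 to 2200000, with 42.6% against 77.1%, followed by the window from 100001 to 200000, with 37.2% against 66.1%, and that from 1600001 to 1700000, with 57.0% against 85.1%. In each of these 3 windows replicate 2 was the higher one.

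Clusters on 3RHet were wider than those of the arm, and in replicate 2 more so. The median width was 2415 bp in replicate 1 (quartiles 1786 and 3514.5 bp) and 3564 bp in replicate 2 (2026 and 6773 bp), against 1987 and 1639.5 bp on 3R. Medians were wider still on 3LHet, 3555 and 4994 bp, and on 2RHet, 3009 and 3955 bp. On 2LHet they were 3108 and 2510.5 bp. The narrowest cluster on 3RHet had 1302 bp in replicate 1 and 1314 bp in replicate 2. Wide domains, of at least 10 kb, numbered 8 in replicate 1 and 37 in replicate 2, while the arm 3R had 0 in both lists. Other autosomal arms, which are far longer than 3RHet, did have them. On 2L, 2R and 3L there were 13, 41 and 30 in replicate 1 and 21, 45 and 46 in replicate 2. On 3RHet wide domains held 15.8% of the covered bases in replicate 1 and 43.2% in replicate 2. In replicate 1 this share rested on the stretch from 1800001 to 2000000: without its clusters it was 5.23%, and in replicate 2 it was 37.6%.

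**Figure D2:**
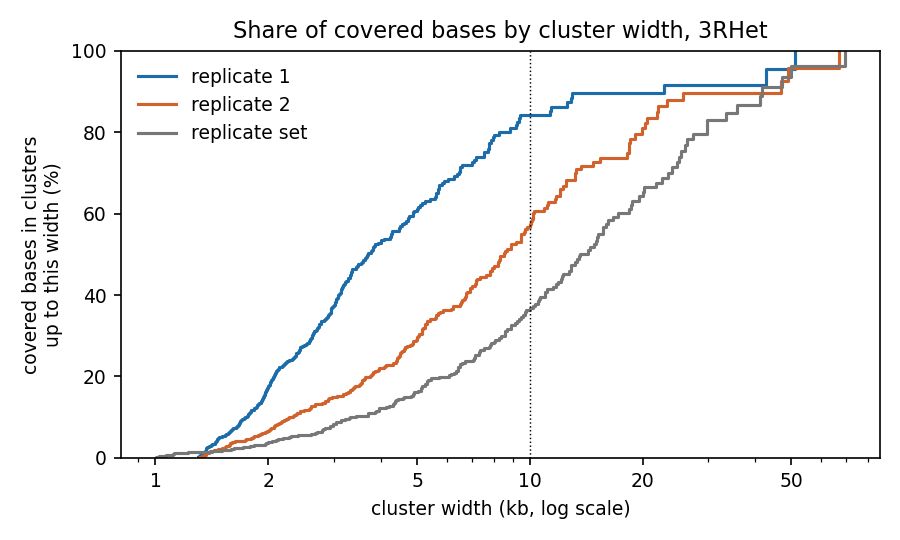
Percent of the covered bases of 3RHet (vertical axis) held by clusters up to a given width (horizontal axis, kb, log scale) for each list, with 10 kb marked by a dotted line. At 10 kb the curve of replicate 2 lies below that of replicate 1, which leaves 43.2% of its covered bases in wider clusters against 15.8% in replicate 1.

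The longest run of bases that lay in 1 cluster of replicate 1 and also in 1 cluster of replicate 2 went from 1882224 to 1933451, 51.2 kb. The replicate 1 cluster there had these same ends, with a score of 1.24, and that of replicate 2 was longer, from 1866503 to 1933545, with a score of 1.32. Scores are the authors' log2 values of a ratio, presumably ChIP over control, and each is read within its own list. The next stretch, from 1940206 to 1982887, was 42.7 kb long, with scores of 1.28 in replicate 1 and 1.58 in replicate 2. These stretches belong to a single domain. In replicate 2 the clusters from 1866503 to 1982887 follow each other with gaps under 500 bp and form a block of 116.4 kb covered to 99.6%. Replicate 1 covered 96.7% of the same block with 7 clusters, and its widest gap there had 2524 bp. The replicate-set list covered 99.9% of it with 2 clusters.

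**Figure D3:**
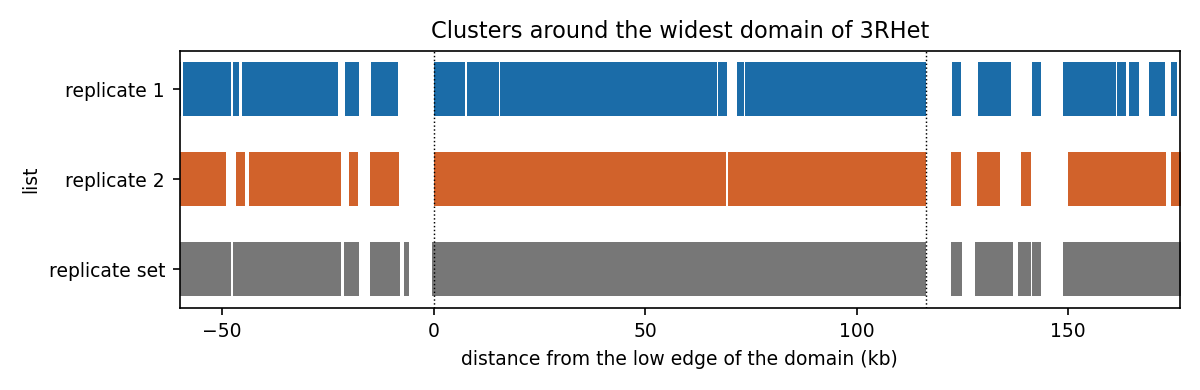
Clusters (bars) of replicate 1, replicate 2 and the replicate-set list around the widest domain of 3RHet, against the distance from its low edge (horizontal axis, kb), with its edges as dotted lines. All 3 lists fill the 116.4 kb between the dotted lines almost wholly, at 96.7%, 99.6% and 99.9%.

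Other long stretches common to both replicates were much shorter. From 1822827 to 1843906 a stretch of 21.1 kb had scores of 1.21 in replicate 1 and 1.56 in replicate 2. From 1687249 to 1700213 there were 13.0 kb with scores of 0.98 and 1.33, and from 2016372 to 2027795 there were 11.4 kb with scores of 1.23 and 1.50. These 5 stretches all lie in the upper part of the scaffold, from 1687249 onwards. In all, 348 stretches were common to a cluster of each replicate, with a median of 2102 bp, and 6 of them had at least 10 kb. The sixth, from 975303 to 985519 (10.2 kb), lay lower on the scaffold than the 5 named.

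Gaps between clusters were mostly short. The median gap was 1696 bp in replicate 1 and 1373 bp in replicate 2, and 35.0% and 43.6% of gaps were under 1 kb. A few long gaps held much of the uncovered sequence. Of the 862302 bp that neither replicate covered, 17 gaps of at least 10 kb held 47.5%. The widest ran from 447708 to 522069 (74.4 kb), followed by those from 315697 to 367080 (51.4 kb), from 2384332 to 2433784 (49.5 kb), from 2217561 to 2260999 (43.4 kb) and from 1067366 to 1092220 (24.9 kb). The first 3 of these lie in or reach into the sparsest windows. Of these 5 gaps the replicate-set list covered between 0.113% and 4.78%, although over all bases outside the clusters of both replicates it covered 25.2%. The bases of these gaps were not analysed here, and whether reads could be placed in them was not tested.

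The widest gap had a sharp edge in both replicates. In the 10 kb that follow its end at 522069, cover was 76.0% in replicate 1 and 94.5% in replicate 2. In the 10 kb before its start it was 4.43% and 25.0%. The gap from 2217561 to 2260999 was flanked by dense sequence on its low side, with 77.1% and 94.3% in the 10 kb before it.

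At the level of bases, nearly all of replicate 1 lay inside replicate 2. Both covered 1026314 bp, or 40.8% of the scaffold. Replicate 1 alone covered 101597 bp, replicate 2 alone covered 527294 bp, and neither covered 34.3% of the scaffold. The common bases made up 91.0% of what replicate 1 covered, 66.1% of what replicate 2 covered and 62.0% of the bases covered by either. By window, this last share ran from 43.9% to 96.6% with a median of 58.7%. It was highest in the windows from 1800001 to 1900000 (92.0%) and from 1900001 to 2000000 (96.6%). The part of replicate 1 bases inside replicate 2 was 95.5% on 3LHet, 93.5% on 2RHet, 89.5% on 2LHet and 29.7% on the arm 3R. Replicate 2 covered 61.7% of 3RHet, so bases overlap there by position alone, and how much was not tested.

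By cluster, 317 of the 331 clusters of replicate 1, or 95.8%, overlapped a cluster of replicate 2 by at least 1 bp. The share over the whole list was 51.8%. Of the 273 clusters of replicate 2, 213 or 78.0% overlapped a cluster of replicate 1, against 54.6% over the whole list. These are counts over all clusters of 1 scaffold, which are not replicates. Where more of a sequence is covered, more clusters overlap by position alone, so the excess over the whole list is not a measure of agreement. The stricter rule, an overlap of at least 50% of both clusters of a pair, left 32.3% in replicate 1 and 39.2% in replicate 2. Most clusters of replicate 1 on the scaffold thus touched a cluster of replicate 2, and a smaller part met the stricter rule. No share over the whole list was taken under the stricter rule. How much of the overlap under either rule arises by position alone was not tested.

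The bases found only in replicate 2 lay mainly around and between clusters of replicate 1. Of them, 48.1% lay beyond the outer edges of the replicate 1 clusters inside the same replicate 2 cluster, and 26.2% lay in 135 gaps between replicate 1 clusters that 1 replicate 2 cluster spanned. The other 25.8% lay in clusters of replicate 2 without any overlap. Of the replicate 2 clusters, 82 overlapped at least 2 clusters of replicate 1, up to 7, and their median width was 8443 bp. Of the replicate 1 clusters, 31 overlapped 2 clusters of replicate 2 and 195 lay wholly inside clusters of replicate 2.

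Overlap followed width. In replicate 2, clusters from 1 to 2 kb overlapped replicate 1 in 33 of 64 cases, those from 2 to 5 kb in 83 of 111, those from 5 to 10 kb in 60 of 61, and the 37 of at least 10 kb in every case. In replicate 1 the first of these classes overlapped in 110 of 119 cases, and all 46 that were 5 kb or wider did. A wider cluster has more chance to touch another by position alone, which was not tested.

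Clusters were matched as mutual best overlap, each being the widest overlap of the other, which gave 196 pairs. None had the same start and end. The distance between the edges of a pair had a median of 810.5 bp (quartiles 278.5 and 2331.75 bp), and 37.0% of the 392 edges lay within 500 bp of each other. Replicate 2 had the wider cluster in 156 of the 196 pairs. Widths were correlated across pairs (Spearman 0.629, a description over clusters of 1 scaffold).

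Compared with the other autosomal scaffolds, 3RHet had many clusters and few wide ones in replicate 1. Per 100 kb it held 13.1 clusters in replicate 1 and 10.8 in replicate 2, against 11.2 and 8.80 on 3LHet, 10.3 and 8.57 on 2RHet, and 10.0 and 10.8 on 2LHet. The share of covered bases in clusters of at least 10 kb was 15.8% in replicate 1, against 44.2% on 3LHet, 38.2% on 2RHet and 22.0% on 2LHet. In replicate 2 it was 43.2%, against 63.2%, 54.2% and 41.0%. The values of 3RHet thus differed more between replicates than those of 3LHet and 2RHet: cover in replicate 2 was 1.38 times that in replicate 1 on 3RHet, 1.15 times on 3LHet, 1.20 times on 2RHet and 1.36 times on 2LHet. Of the bases covered by either replicate, both covered 62.0% on 3RHet, 80.0% on 3LHet, 74.1% on 2RHet and 61.3% on 2LHet. These differences between sequences were not tested.

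**Figure D4:**
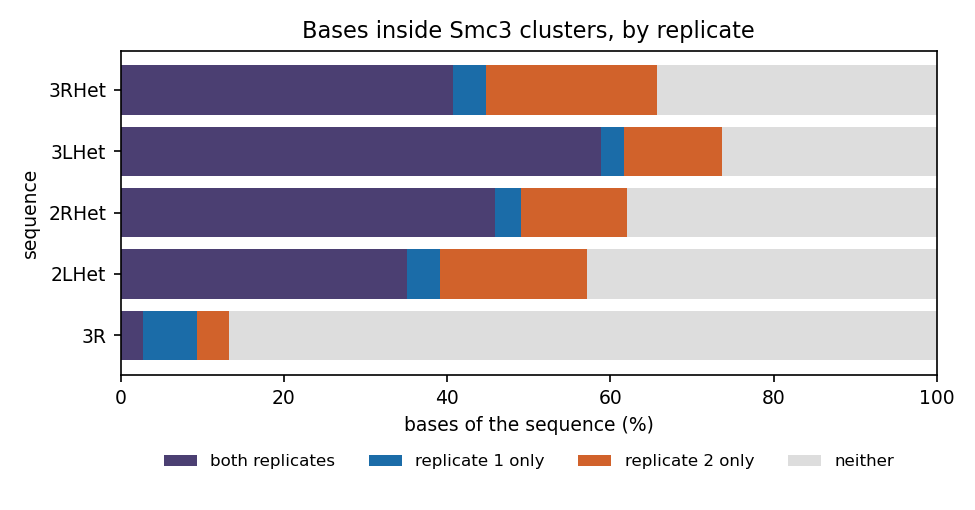
Percent of the bases of 3RHet, of the other autosomal heterochromatic scaffolds and of the arm 3R (horizontal bars that start at 0) that lay inside clusters of both replicates, of replicate 1 only, of replicate 2 only or of neither. On 3RHet the part covered by both is 40.8%, below the 58.9% of 3LHet and the 45.9% of 2RHet and above the 35.1% of 2LHet, and the part of replicate 2 alone is wider than that of replicate 1 alone.

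Scores on 3RHet lay high within each list. Their median was 1.14 in replicate 1 (range 0.67 to 3.21) and 1.37 in replicate 2 (0.60 to 3.74), while the whole lists had medians of 0.78 in each. The other autosomal scaffolds had like medians, 1.18 and 1.43 on 3LHet, 1.17 and 1.37 on 2RHet and 1.28 and 1.43 on 2LHet. Of the clusters on 3RHet, 95.5% scored above the median of the whole list in replicate 1 and 97.4% in replicate 2, and 20.2% and 23.1% were in the top 10% of their list. Score and width were hardly related on the scaffold: Spearman's correlation across clusters was 0.158 in replicate 1 and 0.0924 in replicate 2, against 0.573 and 0.304 on the arm 3R. On 3LHet these values were 0.0950 and 0.0542. They are descriptions across clusters of 1 sequence.

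Wide clusters scored somewhat above the median of the scaffold, while the highest scores sat in narrow clusters. The 8 wide clusters of replicate 1 scored from 0.98 to 1.28, with a median of 1.22. The 37 of replicate 2 scored from 1.14 to 2.11, with a median of 1.45. In both lists this median was the highest of the width classes, and over all clusters it was 1.14 and 1.37. The 34 clusters in the top 10% of scores on the scaffold in replicate 1 had a median width of 2049 bp, and the 28 in replicate 2 had one of 2015.5 bp. High scores also came out as ratios with smaller terms. With 1 constant per list divided out (1.33 in each), 2 to the power of the score came out as a whole-number fraction in 330 of 331 cases in replicate 1 and in 271 of 273 in replicate 2, within a tolerance of 1e-12. The sum of numerator and denominator had a median of 37 in the top 10% of replicate 1 and 149 in its other clusters, and of 32 and 194 in replicate 2. The constant was the one that gave the smallest sums, and reduced ratios lose common factors, so these sums are not read counts. Whether the high scores rest on few reads was not tested.

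**Figure D5:**
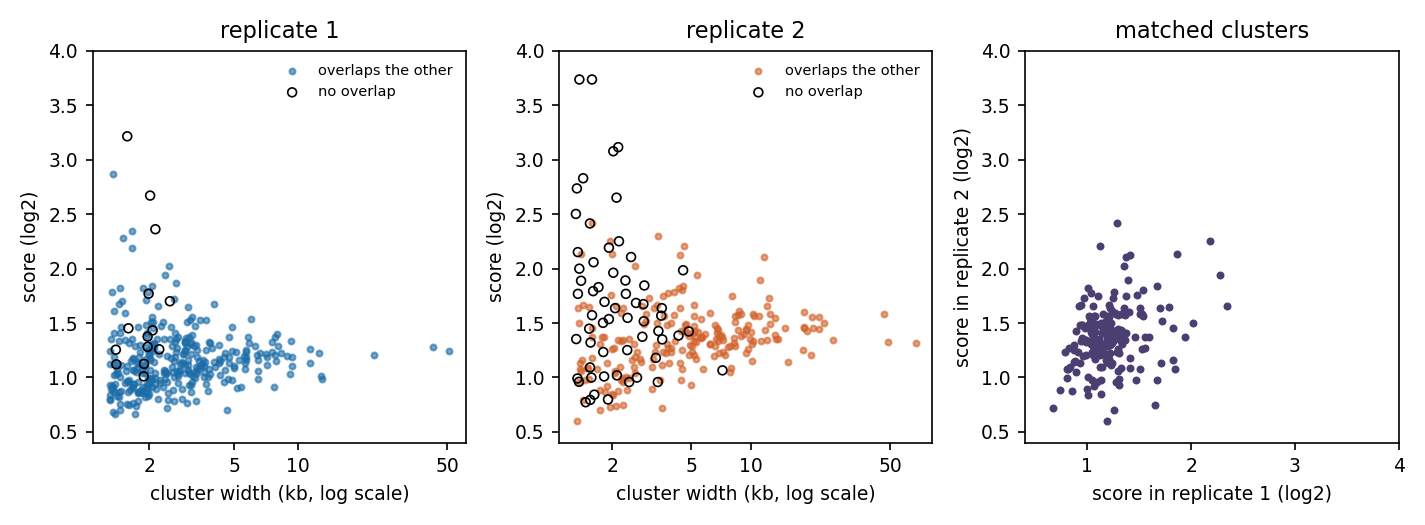
Score (log2, vertical axis) against cluster width (kb, log scale) on 3RHet in replicate 1 and in replicate 2, with clusters that do not overlap the other replicate as open circles, and the scores of the 196 matched pairs in both replicates. The highest scores, 3.21 in replicate 1 and 3.74 in replicate 2, belong to narrow clusters without overlap. Clusters of at least 10 kb score from 0.98 to 1.28 in replicate 1 and from 1.14 to 2.11 in replicate 2.

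Sharing of the highest scores differed between the lists. Of the 34 clusters in the top 10% of replicate 1, 29 overlapped a cluster of replicate 2, against 317 of all 331 on the scaffold. In replicate 2, 11 of the 28 overlapped one of replicate 1, against 213 of all 273. The lists thus also differed over all clusters, and in both the top clusters overlapped less often than all clusters, which was not tested. Top clusters were narrow, and replicate 2 clusters from 1 to 2 kb overlapped in 33 of 64 cases whatever their score. Some of the 29 only touched: the cluster from 936082 to 937435 met replicate 2 over 33 bp. No share for the top 10% of the whole list was taken. In 3 pairs both members were in the top 10%. Scores of the 196 pairs had a Spearman correlation of 0.251 and a Pearson correlation of 0.310. The same Spearman value was 0.503 over 178 pairs on 3LHet, 0.385 over 205 pairs on 2RHet and 0.307 over 25 pairs on 2LHet. On the arm 3R it was lower than on 3RHet, 0.178 over 458 pairs. These are descriptions across clusters of 1 sequence each.

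In replicate 1 the highest cluster without overlap ran from 883736 to 885310, with a score of 3.21, the highest on the scaffold in that list, and a reduced ratio of 7 to 1. A replicate 2 cluster lay 305 bp away. The next were from 1009603 to 1011619 (2.67, 24 to 5) and from 2007991 to 2010125 (2.36, 31 to 8). In replicate 2 the clusters from 1724922 to 1726289 and from 2192287 to 2193869 had the same score, 3.74, and the same ratio of 10 to 1. The third was from 773563 to 775706 (3.11, 13 to 2). All of these are narrow, from 1368 to 2144 bp, and a cluster of the replicate-set list overlapped each of them.

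The strongest sites called in both replicates were ranked by the mean rank of their scores among the clusters of 3RHet. The first was a pair from 891978 to 893635 in replicate 1 (score 2.18, place 7 of 331) and from 893528 to 895485 in replicate 2 (2.25, place 12 of 273), whose clusters met over 108 bp only. The second shared 1042 bp from 1362550 to 1363591, with scores of 1.87 and 2.13. The third shared the 1510 bp from 1319929 to 1321438, with scores of 2.28 and 1.94. In replicate 1 the reduced ratios of these 3 were 24 to 7, 11 to 4 and 11 to 3. In replicate 2 they were 25 to 7, 23 to 7 and 101 to 35, the last in a cluster of 5329 bp, wider than the median of that list on 3RHet.

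The fourth pair shared the bases from 373763 to 375209 (scores 1.67 and 1.84), close to the end of the gap at 367080. The fifth shared those from 829300 to 830951 (2.35 and 1.65), and the sixth those from 2040792 to 2042212 (1.41 and 2.13). The eighth, from 1121706 to 1123036, scored 1.79 and 1.65. In the fifth and eighth pairs the common bases were 58.3% and 61.1% of the bases of either cluster, against 32.0% in the fourth and sixth.

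The seventh pair was the best matched of the 10 in extent. Its cluster ran from 522327 to 526032 in replicate 1 (score 1.53) and from 522070 to 526576 in replicate 2 (1.81), so that the common bases were 82.2% of those of either. It begins right where the widest gap of the scaffold ends, at 522069. The replicate-set cluster there, from 521662 to 526566, scored 1.66, the highest on 3RHet among the 142 clusters of that list that overlap both replicates. The reduced ratios of the seventh pair had larger terms than those of the first 3, 146 to 67 in replicate 1 and 181 to 69 in replicate 2.

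The ninth pair and the tenth were neighbours in 1 replicate-set cluster, from 1231460 to 1257480 (score 1.52). The ninth shared 7759 bp from 1232094 to 1239852, with scores of 1.37 and 2.11, and the tenth 2136 bp from 1245535 to 1247670, with scores of 1.39 and 1.89. The replicate 2 cluster of the ninth, 11645 bp wide, had the highest score of all clusters of at least 10 kb on the scaffold in either replicate. Over the 10 pairs, the place of the replicate-set cluster ran from 21 for the seventh to 161 of 232 for the fifth. The fifth scored 1.07 in that list, below its median of 1.19 on 3RHet. The third (1.22, place 99) and the eighth (1.20, place 110) were near that median. No gene annotation of this build was used, so the genes in these sites are not named.

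The replicate-set list filled more of 3RHet than either replicate, 73.9% of its bases in 232 clusters with a median width of 4706 bp. It overlapped every cluster of both replicates, 331 of 331 and 273 of 273, and held 99.3% of the bases covered by either. Of its clusters, 142 or 61.2% overlapped both replicates, 14 replicate 1 only, 42 replicate 2 only and 34 neither. Those found in both held 88.9% of its bases, with a median width of 8573 bp. Those found in neither were narrow, with a median of 1245 bp, and held 2.75%. The same counts were not taken over the whole replicate-set list or on other scaffolds, so they do not set 3RHet apart.

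Of the 10 clusters of this list with a score of at least 2, 6 overlapped neither replicate, 1 overlapped replicate 1 only, 3 replicate 2 only and 0 both. No share over the high scores of the whole list was taken. The cluster from 1034676 to 1036632 scored 4.00 and overlapped neither replicate, as did those from 1150210 to 1152120 (2.91) and from 1728836 to 1729868 (2.73). The fourth, from 883744 to 885744 (2.61), overlapped the highest cluster of replicate 1 and none of replicate 2. The fifth place was shared by the clusters from 438908 to 440890 and from 696316 to 697328, both at 2.41 and in neither replicate. The sources used here do not say how this list was made from the replicates, so it is no separate measurement.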

How the data were processed

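Per the submitters' processing notes the aligner was Bowtie 0.12.7, and per the file headers the build is release 5 of FlyBase. The deposited lists give start, end and a score for each region the authors called, 1 list per ChIP replicate and 1 for the replicate set. The deposited score was read as a log2 value, since some scores within a list differ by exact doublings. A partner exactly 1 higher existed for 261 of 5347 distinct scores in replicate 1 and 322 of 3993 in replicate 2. In the replicate-set list it existed for 402 of 9121. How regions were called and how reads with several matches were treated is not given in the sources used here.

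Samples were grouped by their titles, which the description of ChIP replicate 2 does not bear out. Coordinates stayed 1-based, and 1 cluster per list was clipped at the end of 3RHet. Windows of 100 kb start at base 1, and the last, of 17507 bp, was left out of window summaries. Regions were named by rule: the 10 strongest matched pairs, the 5 widest common stretches and gaps, extreme windows, the 3 strongest unshared clusters per replicate and the strongest replicate-set clusters. The members and these rules were chosen with earlier results of these data known. No test was run. Interval steps were checked on simulated narrow clusters, none of which overlapped several clusters of the other list. Cases of several overlaps were thus not checked. Tables were read with pandas 2.3.3 and numpy 2.4.6 in Python 3.11.15, correlations came from scipy 1.17.1 and plots from matplotlib 3.10.9. No genome of this build was used.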

Additional observations from a re-analysis of the deposited data

How the results depend on the processing

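Leaving out either replicate gave a cover of 44.8% to 61.7%, a median width of 2415 to 3564 bp, a share of covered bases in wide clusters of 15.8% to 43.2% and a ratio to the arm 3R of 4.78 to 9.29. Keeping only clusters at or above the median score of their list gave a ratio of 26.7, 59.8% of the covered bases in common, a correlation of window cover of 0.825 and one of pair scores of 0.244. Joining clusters across gaps under 500 bp gave a median width of 3895 bp, 62.7% in common and correlations of 0.846 and 0.244. An overlap of at least 50% of the cluster left 90.3% of replicate 1 and 64.1% of replicate 2 clusters shared, and the reciprocal rule 32.3% and 39.2%. Window cover correlated at 0.820 in windows of 50 kb, 0.853 in windows of 200 kb and 0.806 in windows moved by 50 kb. Clusters matched 1 to 1 gave a correlation of pair scores of 0.327, and the share of covered bases in wide clusters, 29.5% in the mean, was 54.7% from 5 kb, 14.7% from 20 kb, 44.0% with joined clusters and 21.4% without the 2 densest windows. Without the 2 densest windows, an alternative chosen after seeing the data, 58.1% of bases were in common and the correlations were 0.789 and 0.253. The causes were not tested. A minimum width of 1000 bp changed none of the 9 results, since no cluster of the replicates on 3RHet is narrower. No paired analysis was possible because only the ChIP samples have lists here and no test was run. Without the depth of the samples, clusters missing from 1 list cannot be told from clusters below detection.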

Other observations

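Some high scores lay close together on 3RHet. A stretch of 300 kb was chosen after the values were seen. It was the run of neighbouring windows with the most replicate 1 clusters scoring at least 2. Its replicate 1 count is thus the highest by choice and is given as a description. Of the 8 clusters of replicate 1 with a score of at least 2, 6 lay in the 300 kb from 800001 to 1100000, which is 11.9% of the scaffold and held 12.7% of its clusters. In replicate 2, 5 of the 23 such clusters lay there, and in the replicate-set list 2 of 10. The stretch held 14.3% of all replicate 2 clusters and 15.1% of all replicate-set clusters on 3RHet. The median score of replicate 1 was 1.23 in this stretch and 1.12 outside it, and that of replicate 2 was 1.35 and 1.38.

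Divided into 3 equal parts from its low to its high end, the scaffold had a cover of 38.7%, 45.4% and 50.3% in replicate 1 and of 57.4%, 61.8% and 65.9% in replicate 2, while the replicate-set list had 71.0%, 77.7% and 73.0%. The share of covered bases common to both replicates was 57.3%, 59.7% and 68.4% in the same parts. The last part holds the 2 densest windows, from 1800001 to 2000000. The parts were not compared without these windows, so no gradient along the scaffold is read from them.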
